A study of Homo sapiens with 15 samples.

Results

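Transcripts of 36 human genes that carry out macroautophagy, chosen by symbol from a list of the core machinery and its soluble receptors, were followed in HT-1080 cells in the cycling and the senescent state and after exposure to the kinase inhibitor GNF-7. All 36 were found among 60670 genes of the count table. The members fall into 7 role groups, namely the ULK complex (5 genes), the class III PI3 kinase complexes (5), membrane supply and PI3P effectors (5), the conjugation enzymes (6), the ATG4 proteases (4), the ATG8 family (6) and the soluble cargo receptors (5).

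HT-1080 is a line from a human fibrosarcoma, and each group held 3 libraries labelled as biological replicates, with no statement of whether they came from separate cultures, so p-values measure the spread between these libraries. Cycling HT-1080 cells, with a time label of 6 h, had only the vehicle DMSO. Senescent HT-1080 cells, made by expressing dominant negative TRF2 (a telomere-binding protein, gene TERF2) for 6 days to uncap telomeres, received DMSO for 6 h, 1 uM GNF-7 for 6 h, DMSO for 24 h or 1 uM GNF-7 for 24 h. Growth was in DMEM with tetracycline-free serum at 5% oxygen for all 5 groups. All groups come from 1 tumour line, no GNF-7 group of cycling cells was analysed here, and the labels do not say whether the cycling cells carried the dominant negative construct. The series' title names the kinase GCN2, a sensor of amino acid shortage upstream of ATF4, as the target through which GNF-7 acts on senescent cells.

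Macroautophagy encloses cytoplasm in a double membrane that later fuses with lysosomes. The ULK kinase complex starts the process, a PI3 kinase complex marks the membrane with the lipid PI3P, WIPI proteins read that mark, and ATG9A and ATG2 proteins supply lipid. Ubiquitin-like conjugation then attaches ATG8 proteins (the LC3 and GABARAP proteins) to the membrane lipid phosphatidylethanolamine, ATG4 proteases process and release them, and receptors such as p62 (SQSTM1) bind both cargo and ATG8 proteins. RNA levels of these genes are not a measure of autophagic flux, since ATG8 proteins and receptors are themselves degraded in lysosomes.

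Library totals were 25991007 to 32323393 counts. TERF2 was at 58.2 ± 3.65 CPM (a gene's count relative to the scaled library total, mean ± SD, n = 3) in cycling cells and 287 ± 8.17 in senescent vehicle cells at 6 h. It was lower with GNF-7, at 222 ± 8.60 CPM at 6 h and, beside 220.0 ± 7.26 in vehicle, 132 ± 5.38 at 24 h. Mitochondrially encoded genes took 3.75% to 5.01% of counts in cycling libraries, 11.2% to 12.4% and 13.2% to 15.3% in senescent vehicle and GNF-7 libraries at 6 h, and 15.1% to 18.7% and 22.6% to 24.1% in those at 24 h. The part of either shift in the results below was not tested, except by leaving mitochondrial genes out of the scaling. That gave 25 member calls in senescence and 18 and 23 with GNF-7 at 6 h and 24 h. The numbers over all genes under that scaling are not given here. Of 6 mesenchymal markers, 1 (NT5E) was under 1 CPM in every library, and their summed level was 5030 to 7415 CPM. MKI67, a proliferation gene, was at 509 ± 24.3 CPM in cycling and 149 ± 3.35 in senescent vehicle cells at 6 h, and the cell cycle inhibitor CDKN1A at 186 ± 2.54 and 501 ± 8.96. All 4 epithelial markers, all 4 leukocyte markers and 2 of 3 endothelial markers were under 1 CPM in every library.

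The start sites of genes described below are shown first. RefSeq windows on GRCh38.p14, from 250 bases before the annotated start to 50 after it, were found for 32 of the 36 members (40 windows, since some genes have several starts), and RB1CC1, ATG4D, UVRAG and MAP1LC3A had none in the table. The 250 upstream bases of 4 members that rose with GNF-7 are given, 5′ to 3′ on the gene's strand, with capitals for a match to TGACNNNGC. MAP1LC3B (chr16:87392086-87392335, plus strand) and CALCOCO2 (chr17:48830785-48831034, plus strand) hold such a match, and WIPI1 (chr17:68457497-68457746, minus strand) and GABARAPL1 (chr12:10212627-10212876, plus strand) hold none of the motifs searched. These 4 were picked from the members that rose, GABARAPL1 at 6 h only, and do not stand for the rest. SQSTM1, ATG12 and TAX1BP1 rose at both times, and their windows hold none of the motifs either.
MAP1LC3B: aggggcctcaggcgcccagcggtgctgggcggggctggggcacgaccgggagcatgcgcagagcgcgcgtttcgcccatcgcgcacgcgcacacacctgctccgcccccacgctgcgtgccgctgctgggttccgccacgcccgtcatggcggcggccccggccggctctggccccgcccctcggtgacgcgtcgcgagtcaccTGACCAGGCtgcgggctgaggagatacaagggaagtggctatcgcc
CALCOCO2: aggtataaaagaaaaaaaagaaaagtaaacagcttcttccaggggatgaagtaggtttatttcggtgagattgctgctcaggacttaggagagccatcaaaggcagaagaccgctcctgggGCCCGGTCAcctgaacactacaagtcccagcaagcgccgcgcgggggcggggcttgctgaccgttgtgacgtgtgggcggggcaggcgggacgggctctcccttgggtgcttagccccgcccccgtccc
WIPI1: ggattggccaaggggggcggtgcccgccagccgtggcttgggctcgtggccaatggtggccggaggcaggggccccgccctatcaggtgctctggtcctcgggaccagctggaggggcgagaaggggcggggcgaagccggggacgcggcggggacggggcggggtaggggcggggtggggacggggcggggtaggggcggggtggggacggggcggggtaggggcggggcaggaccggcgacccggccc
GABARAPL1: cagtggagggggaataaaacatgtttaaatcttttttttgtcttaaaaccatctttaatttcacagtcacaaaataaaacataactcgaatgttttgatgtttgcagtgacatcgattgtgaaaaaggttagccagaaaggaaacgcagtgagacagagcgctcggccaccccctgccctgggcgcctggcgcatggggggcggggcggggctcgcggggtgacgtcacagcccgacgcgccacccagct

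4 motifs were searched on both strands of the whole windows. TGACNNNGC, the core of the antioxidant response element, was in 7.5% of member windows (MAP1LC3B, CALCOCO2 and ATG101) and in 13.35% of all 35116 windows in the table. CACGTG, the E-box bound by TFEB and other factors, was in 5% of member windows (ATG3 and ATG14) and 7.26% of all windows. TCACGTGA, a longer form that contains that E-box, was in 2.5% of member windows (ATG3) and 0.98% of all. TGATGNAA, a form of the CEBP-ATF response element, was in 0 member windows and 3.62% of all. Among the 17447 windows of genes tested for change below, the shares were 14.38%, 9.14%, 1.58% and 2.235%, in the same order. These are matches of letters in 1 window, not measured binding sites.

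MAP1LC3B and MAP1LC3B2 have near-identical coding sequences, so reads from these stretches could be assigned to either. Their longest reading frames of 378 bases differ at 2 positions, C30G and A338G, counted from the A of the start codon with the base of MAP1LC3B first. Bases 1 to 60 of each are shown with the differing base in capitals.
MAP1LC3B: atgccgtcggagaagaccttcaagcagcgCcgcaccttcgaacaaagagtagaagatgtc
MAP1LC3B2: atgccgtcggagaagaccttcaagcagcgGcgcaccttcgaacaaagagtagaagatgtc
Of all 50-base windows in the annotated transcripts, 4.82% of those of MAP1LC3B and 15.07% of those of MAP1LC3B2 occur in the other gene, so the division of those reads is uncertain, which bears mainly on the scarce MAP1LC3B2.

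In senescent against cycling cells, the LC3 and GABARAP transcripts and 4 of 5 cargo receptors were higher, with GABARAPL1 up 5.25-fold, while 4 of 6 conjugation enzymes were lower. Of all genes 35.6% were called higher and 34.4% lower, and the lower calls of ATG10 and ATG16L1 were lost under 8 and 4 alternatives. GNF-7 then raised MAP1LC3B by 1.59-fold at 6 h and 2.53-fold at 24 h, and raised WIPI1, SQSTM1 and CALCOCO2 at both times. GABARAPL1 was raised by GNF-7 at 6 h and did not differ from vehicle beyond the spread at 24 h. ATG4A was lower with GNF-7 at both times, and so were ATG9A, GABARAPL2 and AMBRA1, whose 6 h calls were lost under 5, 3 and 4 alternatives. In bulk RNA, fewer cells with a transcript and less of it per cell cannot be told apart.

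The threshold for calls was an adjusted p of 0.05 in 1 edgeR quasi-likelihood fit over all 15 libraries and 18563 genes, which 35 members entered. Changes given as higher or lower by a value are log2 fold changes. In senescent against cycling cells 25 members were called, or 71.4%, beside 70.0% of all genes. Of these, 18 were higher and 7 lower, beside 35.6% and 34.4% of all genes. With GNF-7 at 6 h 18 were called (51.4%, beside 39.3%), 13 higher and 5 lower (17.9% and 21.4% of all genes). With GNF-7 at 24 h 22 were called (62.9%, beside 58.9%), 15 higher and 7 lower (29.3% and 29.7%). The called share in senescence and at 24 h was thus near that of all genes. Changes of 2-fold or more were all rises, in 5 members in senescence (18.5% of all genes), none with GNF-7 at 6 h (4.16%) and 3 at 24 h (10.3%). No member was called lower by that much, beside 7.56%, 0.566% and 3.92% of all genes.

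The median log2 fold change over the 35 members was 0.14 in senescence, 0.04 with GNF-7 at 6 h and 0.07 at 24 h, and over all genes it was 0.06, 0.01 and 0.04. The split into higher and lower in senescence moved with the settings. It was 18 and 7 as reported, 23 and 3 with total counts or with a filter at a mean of 5 CPM, and 21 and 3 when only the groups compared were fitted. Under total counts all genes had a median of 0.19 there in place of 0.06, so that shift was not confined to the members. The shares of all genes called higher and lower under these settings are not given here. Whether the altered splits are particular to the members was therefore not tested. Total counts and the 5 CPM filter raised small values in that contrast, giving 0.30 and 0.32 for WIPI2 in place of 0.17, 0.27 and 0.29 for GABARAPL2 in place of 0.14, 0.38 and 0.39 for ATG13 in place of 0.24, and 0.40 and 0.41 for GABARAP in place of 0.26. At 24 h of GNF-7 the 5 CPM filter gave 0.25 for ATG3 in place of 0.15, -0.17 for AMBRA1 in place of -0.27, -0.18 for ATG7 in place of -0.28 and -0.19 for GABARAPL2 in place of -0.29. At 6 h of GNF-7 the split was 15 and 2 with the 5 CPM filter, again without the shares of all genes.

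**Figure D1:**
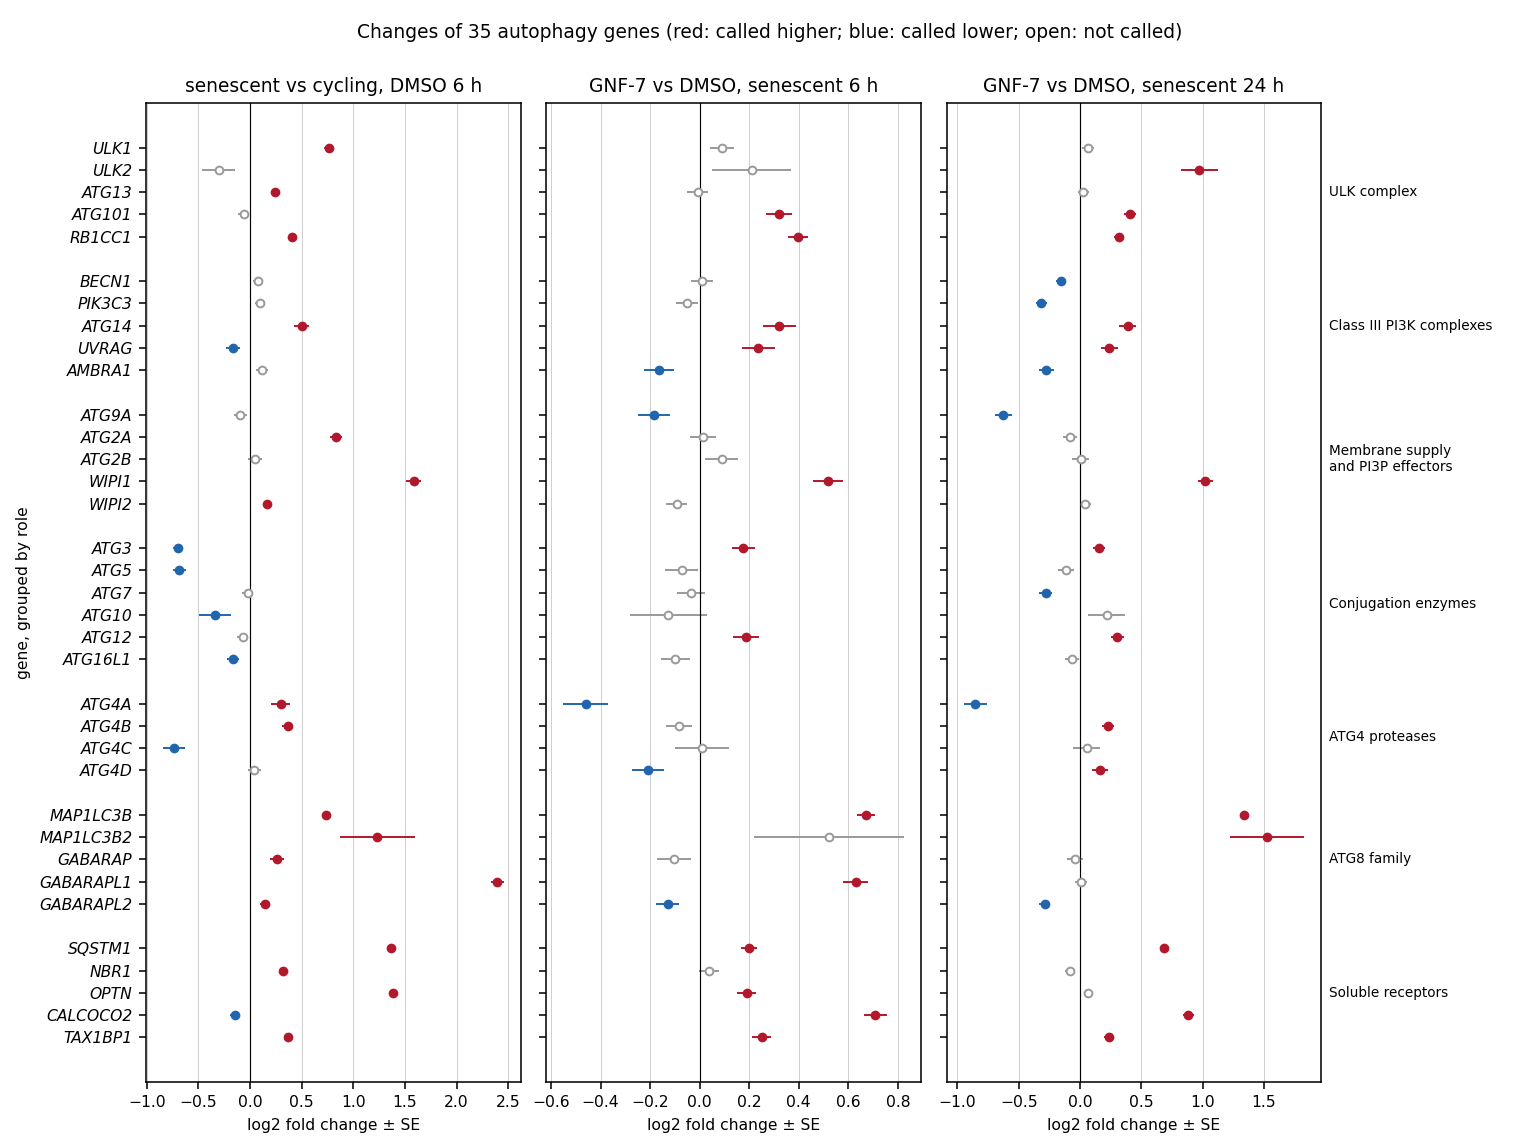
Log2 fold changes (x axis, with SE) of the 35 tested members, grouped by role on the y axis, in senescent against cycling cells at 6 h and in GNF-7 against vehicle at 6 h and at 24 h, from edgeR; filled points were called and open points were not, and each panel has its own scale. The ATG8 family and soluble receptors lie mostly right of 0 in senescence, the conjugation enzymes left of it, and MAP1LC3B and WIPI1 lie right of 0 in all panels.

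The ULK complex phosphorylates the downstream machinery when nutrients are short. ULK1 (ENSG00000177169, chromosome 12, 131894651 to 131923167, plus strand of GRCh38), its main kinase, had the largest change of the complex in senescence. ULK1 was at 48.4, 46.2 and 46.5 CPM in the cycling libraries, 76.6, 85.1 and 77.6 in senescent vehicle libraries at 6 h, 84.6, 84.8 and 85.1 with GNF-7 at 6 h, 69.9, 79.9 and 74.8 in vehicle at 24 h and 75.1, 78.7 and 81.2 with GNF-7 at 24 h. All senescent libraries were above all cycling ones, and vehicle and GNF-7 libraries overlapped at both times. ULK1 was higher in senescence by 0.76 (SE 0.050, edgeR adjusted p 3.64e-21). With GNF-7 its log2 fold change was 0.09 (SE 0.048, edgeR adjusted p 0.136) at 6 h and 0.07 at 24 h (interval of 2 SE, -0.03 to 0.16). It was called at 6 h without replicate 2 of senescent vehicle (0.14), and at both times with the 5 CPM filter (0.14 and 0.17).

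The second kinase, ULK2, was scarce, and it, ATG9A, ATG4A and CALCOCO2 were chosen for full values after those values were seen. ULK2 was at 4.46, 4.68 and 4.31 CPM in the cycling libraries, 4.11, 3.63 and 3.16 in senescent vehicle libraries at 6 h, 3.57, 4.87 and 4.20 with GNF-7 at 6 h, 4.24, 3.35 and 3.71 in vehicle at 24 h and 8.55, 6.50 and 7.20 with GNF-7 at 24 h. The GNF-7 libraries at 24 h stood above all the others. ULK2 was higher with GNF-7 at 24 h by 0.97 (SE 0.15, edgeR adjusted p 1.01e-07), and its values at 6 h overlapped those of vehicle (0.21, not called). RB1CC1 (FIP200), the scaffold of the complex, rose in senescence by 0.41 and with GNF-7 by 0.40 at 6 h and 0.32 at 24 h. ATG101, which stabilises ATG13, rose with GNF-7 by 0.32 and 0.41, and its log2 fold change in senescence was -0.06, which was not called. Of the exon bases of ATG101, 19.19% lie opposite exons of AC025259.1. ATG13 rose in senescence by 0.24 and was not called with GNF-7. No gene of this group was called lower in these 3 contrasts, beside 34.4%, 21.4% and 29.7% of all genes. For ULK2, all senescent vehicle libraries at 6 h were still below the cycling ones (-0.30, edgeR adjusted p 0.0843).

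The class III PI3 kinase PIK3C3 (VPS34) makes PI3P, and BECN1 (Beclin 1) with ATG14 or UVRAG directs it to forming autophagosomes or to endosomes. BECN1 (ENSG00000126581, chromosome 17, 42810134 to 42833350, minus strand) moved little. Of its exon bases, 17.07% lie opposite exons of CNTD1 or PSME3. BECN1 was at 93.6, 95.9 and 91.8 CPM in the cycling libraries, 101, 97.6 and 97.1 in senescent vehicle libraries at 6 h, 97.4, 97.5 and 103 with GNF-7 at 6 h, 105, 104 and 101 in vehicle at 24 h and 96.0, 87.5 and 94.9 with GNF-7 at 24 h. Libraries of vehicle and GNF-7 overlapped at 6 h, and at 24 h the GNF-7 libraries were all below the vehicle ones. BECN1 was lower with GNF-7 at 24 h (log2 fold change -0.16, SE 0.043, edgeR adjusted p 0.00133), and the call was lost with the 5 CPM filter (-0.06). In senescence its log2 fold change of 0.07 was not called, but was called at 0.21 with total counts, 0.22 with the 5 CPM filter and 0.13 with only the groups compared.

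At 24 h of GNF-7 all 5 genes of this group were called, 2 higher and 3 lower, beside 29.3% and 29.7% of all genes. PIK3C3 fell by 0.32 on the log2 scale and AMBRA1, a Beclin 1 binding scaffold, fell by 0.27. ATG14 rose by 0.39 and UVRAG by 0.24. At 6 h ATG14 (0.32) and UVRAG (0.24) were higher and AMBRA1 (-0.16) lower. UVRAG at 6 h lost its call without replicate 1 of GNF-7, and AMBRA1 without replicate 1 or 2 of vehicle, without replicate 3 of GNF-7 or with the 5 CPM filter. In senescence ATG14 rose by 0.50, while the lower value of UVRAG (-0.17) lost its call without cycling replicate 2, without senescent replicate 1 or 2 and under 4 other settings.

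Among the lipid suppliers and PI3P effectors, WIPI1, which binds PI3P on the forming membrane, went up at each step. It is ENSG00000070540, chromosome 17, 68420948 to 68457513, minus strand, and 28.07% of its exon bases lie opposite exons of ARSG or AC007780.1. WIPI1 was at 13.1, 11.8 and 9.57 CPM in the cycling libraries, 33.7, 36.5 and 32.4 in senescent vehicle libraries at 6 h, 50.4, 49.6 and 47.0 with GNF-7 at 6 h, 35.5, 34.6 and 35.5 in vehicle at 24 h and 72.6, 69.4 and 72.4 with GNF-7 at 24 h. No group overlapped its comparison group in senescence or with GNF-7, and vehicle at 6 h and at 24 h overlapped. WIPI1 was higher in senescence by 1.58 (SE 0.073, edgeR adjusted p 1.75e-28), a 3.00-fold change. With GNF-7 it was higher by 0.52 (SE 0.061, edgeR adjusted p 1.94e-10) at 6 h and 1.02 (SE 0.060, edgeR adjusted p 7.28e-23) at 24 h. The related WIPI2 rose in senescence by 0.17 and was not called with GNF-7.

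ATG9A, the lipid scramblase carried on vesicles, was not called in senescence and was lower with GNF-7. ATG9A was at 48.1, 51.8 and 52.0 CPM in the cycling libraries, 50.9, 43.4 and 48.1 in senescent vehicle libraries at 6 h, 40.8, 43.3 and 41.1 with GNF-7 at 6 h, 38.0, 38.8 and 35.4 in vehicle at 24 h and 22.8, 21.8 and 28.2 with GNF-7 at 24 h. The GNF-7 libraries at 24 h were the lowest of all and did not overlap vehicle. ATG9A was lower with GNF-7 at 24 h (log2 fold change -0.63, SE 0.070, edgeR adjusted p 4.53e-11) and at 6 h (-0.19), and vehicle alone at 24 h was below vehicle at 6 h (-0.34). The call at 6 h was lost without vehicle replicate 1 or 3, without GNF-7 replicate 1 or 3 and with the 5 CPM filter. Its exons share 38.8% of their bases with AC068946.2 on the same strand, so its counts depend on how shared reads were assigned. ATG2A, a lipid transfer protein, rose in senescence by 0.83 (SE 0.055, edgeR adjusted p 1.2e-20) and was not called with GNF-7, and its partner ATG2B was called in none of these contrasts.

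The conjugation enzymes ATG7 (E1), ATG3 and ATG10 (E2) and the ATG12, ATG5 and ATG16L1 proteins attach ATG8 proteins to lipid. None was called higher in senescence, beside 35.6% of all genes. ATG3 was at 114, 114 and 115 CPM in cycling cells and 70.9, 67.6 and 72.6 in senescent vehicle cells, a change of -0.70 (SE 0.046, edgeR adjusted p 2.82e-21) on the log2 scale. ATG5 was at 45.0, 49.8 and 50.1 and 31.4, 30.8 and 28.0 CPM, a change of -0.68 (SE 0.064, edgeR adjusted p 1.11e-14). For both genes every senescent library was below every cycling one. ATG16L1 (-0.16) and ATG10 (-0.34) were also called lower, and ATG7 (-0.02) and ATG12 (-0.07) were not called. ATG16L1 lost its call without senescent replicate 1 and under 3 other settings, and ATG10 without cycling replicate 2, without senescent replicate 2 or 3 and under 5 other settings, DESeq2 among them.

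With GNF-7, ATG3 rose by 0.18 at 6 h and 0.15 at 24 h, to 79.4 and 82.0 CPM, beside 114 CPM in cycling cells. The first of these contrasts and the senescence contrast share the senescent vehicle libraries at 6 h, so these 2 values are not independent. The same holds for ATG4A, GABARAPL2, CALCOCO2 and UVRAG, whose calls in senescence and with GNF-7 at 6 h were also opposite in sign. ATG12 rose by 0.19 and 0.30. ATG7 was lower at 24 h (log2 fold change -0.28, SE 0.056, edgeR adjusted p 1.55e-05), and ATG5, ATG10 and ATG16L1 were not called at either time. Of the exon bases of ATG7, 18.07% lie opposite exons of VGLL4.

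ATG4 proteases trim ATG8 precursors and later remove ATG8 proteins from lipid, and the 4 paralogs differed. ATG4A was at 13.7, 15.7 and 14.6 CPM in the cycling libraries, 17.5, 17.9 and 18.6 in senescent vehicle libraries at 6 h, 14.4, 13.1 and 11.8 with GNF-7 at 6 h, 17.6, 16.5 and 20.7 in vehicle at 24 h and 9.92, 10.6 and 9.70 with GNF-7 at 24 h. Senescent vehicle libraries were the highest, and the GNF-7 libraries at 24 h were below all others. ATG4A was higher in senescence by 0.30 and lower with GNF-7 at 6 h (log2 fold change -0.46, SE 0.090, edgeR adjusted p 2.73e-05) and at 24 h (log2 fold change -0.86, SE 0.093, edgeR adjusted p 4.33e-12). ATG4C was lower in senescence (log2 fold change -0.74, SE 0.11, edgeR adjusted p 8.54e-09) and was not called with GNF-7. ATG4B, the most active of the family on LC3, rose in senescence by 0.36 and with GNF-7 at 24 h by 0.23. ATG4D was lower at 6 h (-0.21) and higher at 24 h (0.16) with GNF-7. The first of these calls was lost without replicate 1 of GNF-7, and the second without filtering and without vehicle replicate 1 or 2 or GNF-7 replicate 1 or 2. Of the exon bases of ATG4D, 14.97% lie opposite exons of KRI1.

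The ATG8 proteins are the tags of the autophagosome membrane. All 5 tested members were called higher in senescence, beside 35.6% of all genes. The sixth, MAP1LC3A, had 0 to 4 counts per library, with 0 in the 3 cycling libraries, and a 0 allows up to 3 counts at the 95% level. MAP1LC3B (ENSG00000140941, chromosome 16, 87383995 to 87404779, plus strand) encodes LC3B, the protein most used to mark autophagosomes. MAP1LC3B was at 86.6, 87.1 and 84.5 CPM in the cycling libraries, 139, 147 and 144 in senescent vehicle libraries at 6 h, 232, 228 and 225 with GNF-7 at 6 h, 149.7, 151 and 149.6 in vehicle at 24 h and 389.7, 363 and 388 with GNF-7 at 24 h. Each group stood clear of its comparison group, with vehicle at 6 h and 24 h close together. MAP1LC3B was higher in senescence by 0.74 (SE 0.039, edgeR adjusted p 1.63e-25). With GNF-7 it was higher by 0.67 (SE 0.037, edgeR adjusted p 1.62e-23) at 6 h and by 1.34 (SE 0.037, edgeR adjusted p 1.87e-39) at 24 h. With MAP1LC3B2 counts added to it these values were 0.74, 0.67 and 1.34. Being scarce, MAP1LC3B2 could move them little, and the sum does not restore any reads left uncounted because they fit both genes.

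GABARAPL1 (ENSG00000139112, chromosome 12, 10212458 to 10223130, plus strand) had the largest change of any member in senescence. GABARAPL1 was at 11.5, 9.50 and 10.97 CPM in the cycling libraries, 56.0, 55.1 and 56.1 in senescent vehicle libraries at 6 h, 87.1, 84.3 and 87.3 with GNF-7 at 6 h, 59.7, 60.3 and 57.3 in vehicle at 24 h and 63.3, 56.0 and 58.9 with GNF-7 at 24 h. Cycling libraries were far below the rest, GNF-7 libraries at 6 h were the highest, and those at 24 h overlapped vehicle. GABARAPL1 was higher in senescence by 2.39 (SE 0.064, edgeR adjusted p 7.11e-41) and with GNF-7 at 6 h by 0.63 (SE 0.051, edgeR adjusted p 1.98e-16). At 24 h the log2 fold change was 0.01, with an interval of 2 SE from -0.10 to 0.11, and its sign turned under 4 settings (-0.0436 to -0.00493), among them leaving out replicate 3 of vehicle or replicate 1 of GNF-7. The 2 paralogs changed less. GABARAP rose in senescence by 0.26 and was not called with GNF-7, and GABARAPL2 (GATE-16) rose in senescence by 0.14 and was lower with GNF-7 at 6 h (-0.13) and at 24 h (-0.29). The call of GABARAPL2 at 6 h was lost without vehicle replicate 1, without GNF-7 replicate 2 and with the 5 CPM filter. Exons of GABARAP share 30.49% of their bases with AC120057.2 on the same strand, so its values are uncertain.

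MAP1LC3B2 (ENSG00000258102, chromosome 12, 116548105 to 116576448, plus strand) was near the lower limit of the assay, with 10 to 81 counts per library. MAP1LC3B2 was at 0.402, 0.448 and 0.359 CPM in the cycling libraries, 1.26, 0.695 and 0.902 in senescent vehicle libraries at 6 h, 1.43, 1.27 and 1.40 with GNF-7 at 6 h, 0.766, 0.776 and 0.697 in vehicle at 24 h and 2.40, 1.40 and 2.69 with GNF-7 at 24 h. Cycling libraries were the lowest, and the GNF-7 libraries at 24 h were all above those of vehicle but spread widely. MAP1LC3B2 was called higher in senescence by 1.23 (SE 0.36, edgeR adjusted p 0.00227) and at 24 h of GNF-7 by 1.53 (SE 0.30, edgeR adjusted p 1.54e-05), and at 6 h its 0.52 was not called.

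Set on 1 scale of CPM per kb of exon (GENCODE 29), the summed ATG8 transcripts were 49.6 ± 0.239 in cycling cells. At 6 h they were 75.9 ± 1.19 in senescent cells on vehicle and 96.8 ± 1.45 with GNF-7. At 24 h they were 81.7 ± 0.891 in vehicle and 121.1 ± 4.70 with GNF-7. In cycling cells GABARAPL2 made up 40.8% ± 0.654 of this sum and MAP1LC3B 32.7% ± 0.379. In senescent vehicle cells at 6 h the share of GABARAPL2 was 29.4% ± 0.577 and that of GABARAPL1 18.0% ± 0.129, beside 5.26% ± 0.518 in cycling cells. With GNF-7 at 24 h MAP1LC3B made up 59.1% ± 0.632 (34.6% ± 0.535 in vehicle) and GABARAPL1 11.81% to 12.37% (17.7% ± 0.515). These shares depend on the exon lengths used and were not tested.

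**Figure D2:**
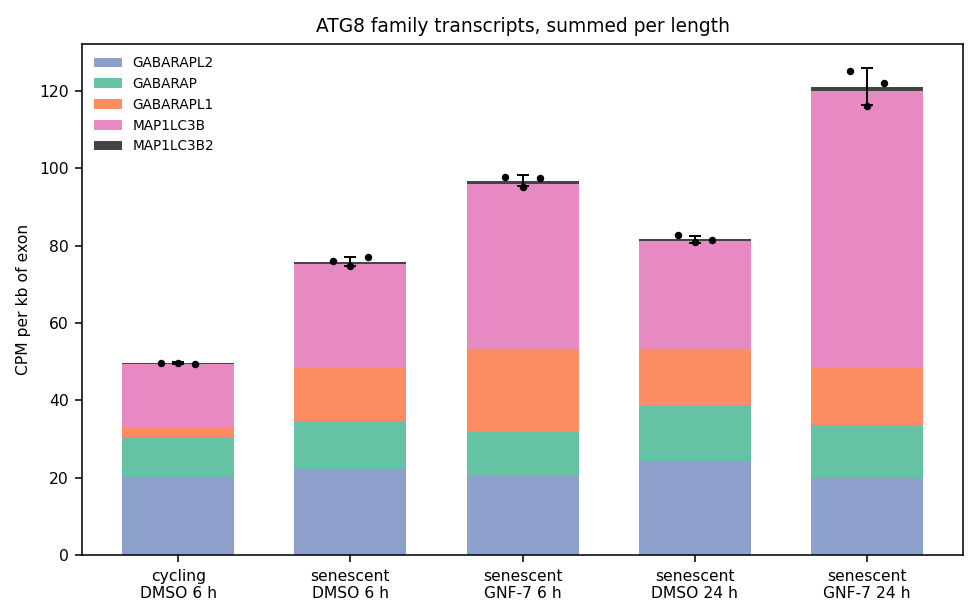
Summed ATG8 family transcripts in CPM per kb of exon (y axis) in the 5 groups (x axis), stacked by gene, with each library's sum as a point and the mean ± SD of the 3 libraries as a bar. The sum was lowest in cycling cells (49.6) and highest with GNF-7 at 24 h (121.1), where the MAP1LC3B segment is the largest.

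Soluble receptors link cargo to ATG8 proteins. SQSTM1 (ENSG00000161011, chromosome 5, 179806398 to 179838078, plus strand), which encodes p62, was the most abundant member per kb of exon in all 5 groups. SQSTM1 was at 419, 407 and 423 CPM in the cycling libraries, 1109, 1074 and 1043 in senescent vehicle libraries at 6 h, 1241, 1211 and 1255 with GNF-7 at 6 h, 995, 972 and 999.5 in vehicle at 24 h and 1591, 1566 and 1611 with GNF-7 at 24 h. Groups did not overlap in any of the 3 contrasts. SQSTM1 was higher in senescence by 1.37 (SE 0.033, edgeR adjusted p 5.95e-43), a 2.58-fold change. With GNF-7 it was higher by 0.20 (SE 0.032, edgeR adjusted p 6.33e-07) at 6 h and 0.69 (SE 0.033, edgeR adjusted p 1.43e-27) at 24 h. Of its exon bases, 22.04% lie opposite exons of MGAT4B or MRNIP.

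OPTN (ENSG00000123240, chromosome 10, 13099449 to 13138308, plus strand), optineurin, is a receptor for damaged mitochondria and bacteria. OPTN was at 59.6, 58.8 and 62.0 CPM in the cycling libraries, 155, 155 and 161 in senescent vehicle libraries at 6 h, 183, 171 and 183 with GNF-7 at 6 h, 164, 158 and 158 in vehicle at 24 h and 173, 170.2 and 159 with GNF-7 at 24 h. The cycling libraries were lowest, and vehicle and GNF-7 overlapped at 24 h. OPTN was higher in senescence by 1.38 (SE 0.043, edgeR adjusted p 1.15e-37) and with GNF-7 at 6 h by 0.19 (SE 0.040, edgeR adjusted p 7.3e-05). Its log2 fold change at 24 h was 0.07, not called here, and called with total counts (0.10), with the 5 CPM filter (0.17) and without replicate 3 of GNF-7 (0.10).

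CALCOCO2 (NDP52; ENSG00000136436, chromosome 17, 48830988 to 48866522, plus strand) is a receptor for bacteria and mitochondria. CALCOCO2 was at 65.7, 69.0 and 68.6 CPM in the cycling libraries, 60.9, 58.8 and 63.7 in senescent vehicle libraries at 6 h, 100.4, 99.6 and 99.7 with GNF-7 at 6 h, 60.7, 64.5 and 62.1 in vehicle at 24 h and 119.9, 117 and 108 with GNF-7 at 24 h. GNF-7 libraries at both times were above all others. CALCOCO2 was higher with GNF-7 by 0.71 (SE 0.046, edgeR adjusted p 1.6e-20) at 6 h and 0.88 (SE 0.046, edgeR adjusted p 1.15e-25) at 24 h. It was lower in senescence (-0.15), which was no longer called under total counts or only the groups compared, and which turned to 0.00084 with the 5 CPM filter. TAX1BP1, a paralog of CALCOCO2 that binds ubiquitin, rose in senescence by 0.37 and with GNF-7 by 0.25 and 0.24. NBR1, a receptor akin to p62, rose in senescence by 0.32 and was not called with GNF-7.

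**Figure D3:**
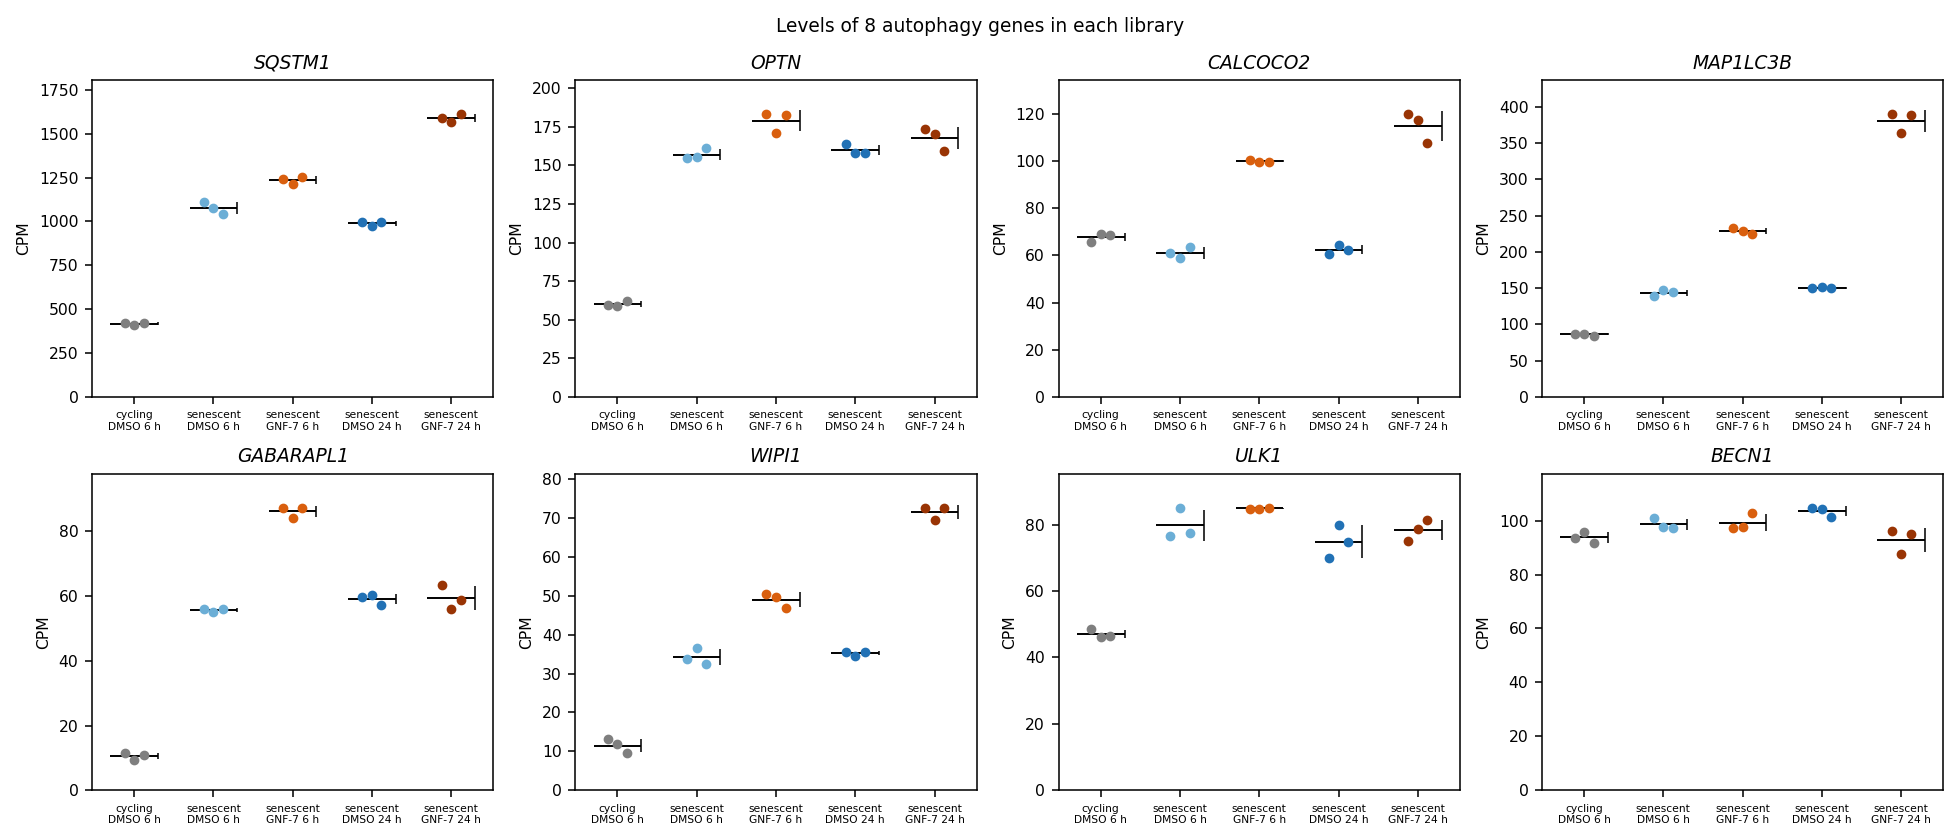
CPM (y axis, from 0, own scale in each panel) of 8 members in each of the 15 libraries by group (x axis), with the group mean as a line and the SD as a vertical bar. MAP1LC3B, WIPI1 and SQSTM1 step up in senescence and again with GNF-7 at both times, GABARAPL1 is highest with GNF-7 at 6 h, and BECN1 stays between 87.5 and 105 CPM.

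The order of levels per kb changed with the state of the cells. In cycling cells SQSTM1 (54.4 CPM per kb) was followed by GABARAPL2 (20.2), ATG3 (18.7) and ATG101 (17.4). In senescent vehicle cells at 6 h the order was SQSTM1 (141), OPTN (30.6), MAP1LC3B (27.0) and GABARAPL2 (22.3). With GNF-7 at 24 h it was SQSTM1 (208), MAP1LC3B (71.6), OPTN (32.6) and RB1CC1 (23.9). MAP1LC3A, MAP1LC3B2, ULK2 and ATG10 were the lowest 4 in all groups. Neighbours in these orders were not tested against each other.

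An interaction term tested if GNF-7 acted differently at 6 h and at 24 h, and 13 members were called, or 37.1%, beside 30.8% of all genes. In 7 the log2 effect was higher at 24 h and in 6 lower (12.8% and 18.0% of all genes), and none of these differences reached 2-fold (2.93% of all genes upward and 2.06% downward). With mitochondrial genes left out of the scaling the numbers were 6 and 8, for which the shares of all genes are not given here. The 2 single-time contrasts share no library. Of the 35 members, 11 were higher at both times, 4 were lower at both and 11 were called at neither, beside 13.0%, 17.3% and 33.8% of all genes. Of the 4 lower at both, AMBRA1, ATG9A and GABARAPL2 each lost the 6 h call when 1 of the libraries named above was left out.

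The effect on MAP1LC3B was larger at 24 h, by 0.67 (SE 0.053, edgeR adjusted p 1.32e-16). So were those on WIPI1 (0.50), SQSTM1 (0.49), ULK2 (0.76) and ATG4B (0.31). The difference for CALCOCO2 (0.17) was lost under 13 of the settings tried, among them RLE scaling, DESeq2 and leaving out vehicle replicate 1 or 3 or GNF-7 replicate 2 or 3 at 6 h, or vehicle replicate 1 or 3 or GNF-7 replicate 1 or 2 at 24 h. GABARAPL1 showed the reverse, a smaller effect at 24 h, with a difference of -0.62 (SE 0.073, edgeR adjusted p 1.7e-10). ATG9A (-0.44), PIK3C3 (-0.27), ATG4A (-0.40), ATG7 (-0.25) and BECN1 (-0.17) had lower values at 24 h. The call for ATG4A was lost without replicate 1 of GNF-7 at 6 h or replicate 3 of vehicle at 24 h, that for ATG7 without replicate 3 of GNF-7 at 6 h, and that for BECN1 under 8 settings, which include leaving out replicate 2 or 3 of vehicle or 3 of GNF-7 at 6 h, or 1 of vehicle or 2 of GNF-7 at 24 h. For ATG4D the sign itself differed between times, with an interaction of 0.37 (SE 0.094, edgeR adjusted p 0.00121). MAP1LC3B2 had the largest difference (1.01), which was not called here and was called without replicate 2 of vehicle at 6 h (1.19) or replicate 2 of GNF-7 at 24 h (1.24).

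**Figure D4:**
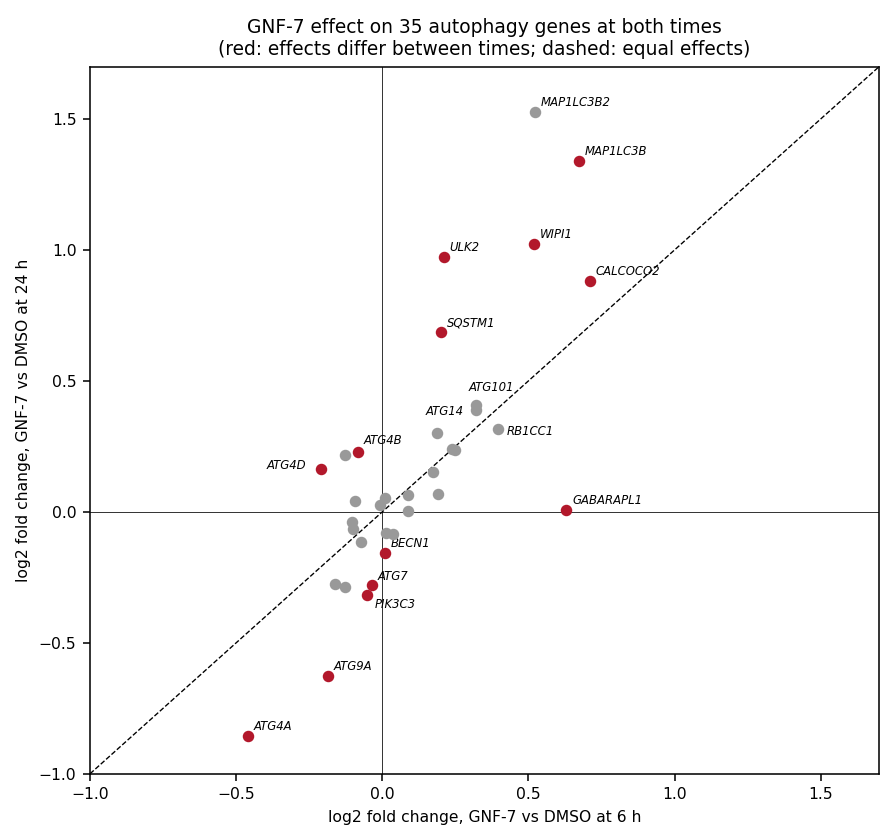
Log2 fold change of GNF-7 against vehicle at 6 h (x axis) and at 24 h (y axis) for the 35 tested members, each a point, red where the interaction was called and grey where it was not; the dashed line marks equal effects. MAP1LC3B, WIPI1, SQSTM1 and ULK2 lie above the line, and GABARAPL1 (0.63 at 6 h, 0.01 at 24 h) lies far below it.

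Senescent vehicle cells at 24 h were also compared with those at 6 h. Here 8 members were called (22.9%, beside 18.5% of all genes), 2 higher and 6 lower (9.26% and 9.29%). ATG9A (-0.34), ATG2A (-0.24), UVRAG (-0.22), ATG16L1 (-0.18), SQSTM1 (-0.12) and ATG13 (-0.12) were lower, and GABARAP (0.20) and GABARAPL2 (0.13) higher. The split was 1 and 7 with mitochondrial genes left out of the scaling and 0 and 17 with total counts. Under total counts all genes had a median of -0.10 in place of 0.01. The shares of all genes called higher and lower under either setting are not given here. The calls of ATG9A and ATG2A were kept under all settings run, and those of the other 6 were each lost without at least 1 library, SQSTM1 without vehicle replicate 1 at 6 h.

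Other genes of the pathway were read from 4 lists. Of 12 accessory initiation and expansion genes, 9 were called in senescence (6 higher). With GNF-7, 8 were called at 6 h (5 higher) and 8 at 24 h (5 higher). These are 75%, 66.7% and 66.7% called, beside 70.0%, 39.3% and 58.9% of all genes. Called higher were 50%, 41.7% and 41.7%, beside 35.6%, 17.9% and 29.3% of all genes. VMP1, an ER scramblase that works with ATG9A, was at 156 ± 0.315 CPM in cycling, 309.5 ± 7.77 and 254 ± 10.1 in senescent vehicle and GNF-7 cells at 6 h, and 308 ± 6.72 and 177 ± 4.57 at 24 h. VMP1 rose in senescence by 0.99 and was lower with GNF-7 at 6 h (-0.28) and at 24 h (log2 fold change -0.80, SE 0.037, edgeR adjusted p 2.58e-28). WDR45, a PI3P-binding relative of WIPI1, rose by 0.96, 0.38 and 0.71 in these contrasts, and PIK3R4, the regulatory subunit of PIK3C3, was lower in each (-0.60, -0.45 and -0.47).

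Of 15 genes of autophagosome-lysosome fusion, 12 were called in senescence (10 higher), 6 with GNF-7 at 6 h (2 higher) and 11 at 24 h (8 higher). These are 80%, 40% and 73.3%, beside 70.0%, 39.3% and 58.9% of all genes, so the count at 6 h was at that share. Called higher were 66.7%, 13.3% and 53.3%, beside 35.6%, 17.9% and 29.3% of all genes. The tethering subunits VPS11 (0.57) and VPS41 (0.49) rose at 24 h and EPG5, another tether, was lower (-0.63). The fusion SNARE VAMP8 was under 1 CPM in every library and called higher at 24 h by 2.12 (SE 0.54, edgeR adjusted p 0.000534).

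Of 18 organelle receptor and mitophagy genes, 15 were called in senescence (8 higher), 6 with GNF-7 at 6 h (2 higher) and 12 at 24 h (6 higher). The shares were 83.3%, 33.3% and 66.7%, beside 70.0%, 39.3% and 58.9% of all genes, the second below its background and the last near it. Called higher were 44.4%, 11.1% and 33.3%, beside 35.6%, 17.9% and 29.3% of all genes. CCPG1, a receptor for the endoplasmic reticulum, rose at 24 h by 1.27 (SE 0.065, edgeR adjusted p 7.88e-26), with 38.89% of its exon bases shared on the same strand with DNAAF4-CCPG1 and MIR628. The ferritin receptor NCOA4 (-0.57) and the ER receptor SEC62 (-0.46) were lower.

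Of 10 transcription factors linked to autophagy genes, 8 were called in senescence (6 higher), 8 with GNF-7 at 6 h (6 higher) and 9 at 24 h (5 higher). The called shares of 80%, 80% and 90% stood beside 70.0%, 39.3% and 58.9% of all genes. Called higher were 60%, 60% and 50%, beside 35.6%, 17.9% and 29.3% of all genes. ATF4, a target of GCN2 signalling, was at 326 ± 0.848 CPM in cycling cells, 182 ± 7.89 and 433 ± 5.83 in senescent vehicle and GNF-7 cells at 6 h, and 192 ± 3.84 and 611 ± 10.7 at 24 h. It was lower in senescence (-0.84) and higher with GNF-7 (1.25 and 1.67). Its partner DDIT3 (CHOP), of whose exon bases 31.6% lie opposite MARS or MBD6, rose by 2.72 and 3.02 with GNF-7 and CEBPB by 1.51 and 1.45. MITF, a relative of the autophagy regulator TFEB, was lower with GNF-7 at 6 h (-0.57) and at 24 h (log2 fold change -1.91, SE 0.086, edgeR adjusted p 8.62e-29).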

How the data were processed

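RNA from 15 libraries was prepared with a stranded mRNA kit, per the labels' protocols. Per the submitters' processing notes, the tools were bcl2fastq 2.20.0.422, STAR 2.7.9a and featureCounts 1.5.1 on GRCh38, and the annotation release and strand setting are not given in the sources used here. The authors deposited whole-number counts per gene without normalization. Of 60673 rows, 3 were left out as pieces of a broken entry.

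Counts were fitted with edgeR 4.0.16 in R 4.3.3 (filterByExpr, TMM, robust quasi-likelihood, a term per group, no block), with Benjamini-Hochberg adjustment over 18563 genes. CPM used TMM library sizes, and exon lengths came from GENCODE 29. All within-group library pairs differed beyond sampling noise. The fit was also run on simulated counts in which few genes were changed, by 2-fold and in a single group. That run does not check the calls made here, where a large share of genes changed. Alternatives were RLE, total counts, mitochondrial genes left out of scaling, no filter, a mean of 5 CPM, DESeq2 1.42.0, limma voom 3.58.1, only the groups compared, a replicate block, MAP1LC3B with MAP1LC3B2, and each library left out. Members and lists were chosen with earlier results of these data known. Members named by rule were SQSTM1, MAP1LC3B, GABARAPL1, WIPI1, ULK1, BECN1, MAP1LC3B2 and OPTN. 1 gene of the organelle receptor list is not reported here.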

Additional observations from a re-analysis of the deposited data

Results flagged for a closer look

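GNF-7 acted differently at 6 h and at 24 h, by the edgeR interaction test over all genes (called at an adjusted p under 0.05), in 13 members (37.1%, beside 30.8% of all genes). In the other 4 lists, in the order given above, 3 of 12, 8 of 15, 9 of 18 and 6 of 10 genes were called. These are 25%, 53.3%, 50% and 60%, beside the same 30.8%. Of these genes, 12 are named below by the naming rule. Values are the log2 effect at 24 h minus that at 6 h, and no cause was tested.

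Among the members the difference was positive for ULK2 (0.76), MAP1LC3B (0.67), WIPI1 (0.50), SQSTM1 (0.49), ATG4D (0.37), ATG4B (0.31) and CALCOCO2 (0.17). It was negative for GABARAPL1 (-0.62), ATG9A (-0.44), ATG4A (-0.40), PIK3C3 (-0.27), ATG7 (-0.25) and BECN1 (-0.17). The calls of CALCOCO2 and BECN1 were lost under 13 and 8 alternatives, of ATG4A under 2 and of ATG7 under 1.

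In the other lists it was positive for VAMP8 (2.34, at under 1 CPM in every library), CCPG1 (0.64), VPS41 (0.42), ATF4 (0.42), WDR45 (0.33), DDIT3 (0.30) and VPS11 (0.25). It was negative for MITF (-1.34), VMP1 (-0.52), EPG5 (-0.42), NCOA4 (-0.33) and SEC62 (-0.33).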

How the results depend on the processing

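Of 86 called member results over the 5 contrasts, 65 stayed called in every alternative and 21 lost the call in at least 1, where 98 values fell short of the threshold and 1 turned. Members called ranged, with 1 library left out, over 23 to 25 in senescence, 15 to 19 and 21 to 24 with GNF-7 at 6 h and 24 h, 10 to 16 for the interaction and 3 to 9 for vehicle at 24 h against 6 h. All genes called ranged, in the same order, over 12380 to 13140, 6339 to 7361, 10110 to 11100, 5172 to 5750 and 2535 to 3570. The full fit tested 18563 genes. The count of members for vehicle at 24 h against 6 h was 17 with total counts and 5 without the filter on low counts. The numbers over all genes under either setting are not given here. Among results called or of the members named by rule, these changed sign, and the cause was not tested: CALCOCO2 in senescence (0.00084 with the 5 CPM filter), BECN1 with GNF-7 at 6 h (-0.011 without filter, -0.0187 to 0.0345 with 1 library left out), GABARAPL1 with GNF-7 at 24 h (-0.00493 with mitochondrial genes left out of scaling, -0.016 without filter, -0.0436 to 0.0469 with 1 library left out) and the ULK1 interaction (0.025 with the 5 CPM filter, -0.0752 to 0.0233 with 1 library left out). With total counts the vehicle contrast of 24 h against 6 h also turned for BECN1 (-0.041), WIPI1 (-0.0701), MAP1LC3B (-0.045), GABARAPL1 (-0.027) and OPTN (-0.084). Between same-number libraries of different groups, deviations from the group mean had correlations near 0 (30 pairs, r from -0.037 to 0.058). Such low values do not exclude pairing. In each senescent group the mitochondrial share was lowest in replicate 1 and highest in replicate 2. With the replicate block 25, 18, 23, 13 and 9 members were called, for which the numbers over all genes are not given here. Depth limits MAP1LC3A and, less so, MAP1LC3B2, ULK2 and ATG10.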
